A study of Mus musculus with 18 samples.

Results

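Genes of vitamin D action and calcium handling were read in the kidney cortex of 5 mouse strains. Of 10 genes listed, 9 were found under their own symbol, namely Cyp24a1, Cyp27b1, Vdr, Calb1, S100g, Trpv5, Trpv6, Kl, and Fgfr1. They were carried by 14 of the 46632 probes deposited for B6 and NZW and by 6 of the 46133 probes deposited, as a separate table, for BALB/C, DBA1, and 129/svj. The 10th gene, Pth1r, was listed under the older symbol Pthr1 with 2 probes, which were added after the tables had been seen. The genes were selected on their function, after the Cyp24a1 signals of these arrays were known to vary within strains. The strain differences and the spread of Cyp24a1 are therefore given as a description, without a test.

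All mice were 2 months old, and all had been challenged with anti-GBM antibodies, which bind the glomerular basement membrane and start an immune nephritis. The labels call B6 and BALB/C resistant and DBA1, 129/svj, and NZW sensitive. There were 3 mice per strain, 15 in all, on 18 Illumina mouse BeadChip arrays, because mouse 1 of BALB/C, DBA1, and 129/svj had a repeat array that was averaged with its first. No unchallenged mice were measured, so strain differences that preceded the antibody and those that followed it cannot be told apart.

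The active vitamin D hormone is made in the proximal tubule by the hydroxylase encoded by Cyp27b1 and is degraded by the hydroxylase encoded by Cyp24a1. It acts through the vitamin D receptor, encoded by Vdr, a nuclear receptor that binds DNA with a retinoid X receptor and induces Cyp24a1, so that the hormone limits itself. In the distal tubule, calcium enters the cell through the channel Trpv5, is carried by the calbindins encoded by Calb1 and S100g, and leaves through a pump and an exchanger. Kl encodes klotho, which pairs with the receptor encoded by Fgfr1 to sense FGF23. The receptor for parathyroid hormone is encoded by Pth1r.

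Values are log2 signals after background correction and quantile normalization, which were done in each table by itself, so levels are compared between strains of 1 table only and never between probes. A probe was tested where at least 3 mice of its table had a detection p of 0.05 or less. For B6 and NZW, 9 probes of 8 genes passed. For BALB/C, DBA1, and 129/svj, 3 probes passed, those of Cyp24a1, Calb1, and Trpv5. Kl, Vdr, and Trpv6 were matched to no row of the other table and were read in B6 and NZW only. For Calb1, Cyp27b1, Fgfr1, and Trpv5 the row of that table shares its key with 2 probes of the B6 and NZW table, so which of them it corresponds to is not settled. In RNA of whole cortex, fewer cells of a type and less RNA per cell cannot be told apart.

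Arrays of B6 and NZW had median signals of 81.13 to 89.77, and those of the other strains 118.5 to 151.6. Array pairs from different mice of a strain correlated at 0.9877 to 0.9929 in B6 and NZW. In the other table, DBA1 mouse 3 (0.9571 to 0.9603) and 129/svj mouse 3 (0.9595 to 0.9723) stood apart from the other pairs of their table (0.9752 to 0.9848), and the main values that rest on these mice are also given without them. Markers of the proximal tubule were detected for 9 of 9 genes in B6 and NZW and for the 6 that could be matched in the other table.

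Cyp24a1 had the most variable signal among the tested vitamin D and calcium genes, and it was read in all 5 strains. In the table of BALB/C, DBA1, and 129/svj, the raw signal of DBA1 was 664.2 in mouse 1 as the mean of both arrays, 483.3 in mouse 2, and 630.2 in mouse 3. In BALB/C it was 152.2, 303.8, and 158.9 in mice 1, 2, and 3. In 129/svj it was 173.8, 354.5, and 1375.4. All DBA1 mice were high and all BALB/C mice low, whereas 129/svj ran from a value close to the lowest BALB/C mice to the highest of the table.

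On the normalized log2 scale, the Cyp24a1 signal of DBA1 averaged 8.90 ± 0.33 (SD, n = 3). BALB/C averaged 6.25 ± 1.12 (SD, n = 3), where 2 of 3 mice passed the detection limit, and the average of 129/svj lay between at 8.06 ± 1.96 (SD, n = 3). BALB/C lay below DBA1 with no overlap of the mice (log2 difference -2.65, and -2.54 without DBA1 mouse 3), and since BALB/C was near the background the size of this difference depends on the background correction. The differences between neighbours in this order were smaller, and the mice overlapped. DBA1 exceeded 129/svj by 0.84, which became 1.83 without 129/svj mouse 3 and turned to -0.13 without 129/svj mouse 1, so the order of these strains rested on single mice. BALB/C minus 129/svj was -1.82, which became -0.83 without mouse 3 and -2.78 without mouse 1 of 129/svj. With no background correction the differences shrank to -1.62 for BALB/C minus DBA1, -1.15 for BALB/C minus 129/svj, and 0.47 for DBA1 minus 129/svj.

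The 3 mice of 129/svj spanned 15.08-fold in Cyp24a1 on the normalized scale, and mice 1 and 2 without mouse 3 spanned 3.71-fold. Their normalized log2 values were 6.13, 8.02, and 10.04. The repeat array of 129/svj mouse 1 differed from its first array by 0.20 on the log2 scale, with raw signals of 195.8 and 151.7, so the distance between these mice was far larger than that between arrays of 1 mouse. In DBA1 the repeat arrays differed by 0.18. In BALB/C, near the background, they differed by 1.03, and the detection p of the repeat array was 0.4047. The signal of 1375.4 in 129/svj mouse 3 was the mean of 36 beads with a standard error of 51.4.

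**Figure D1:**
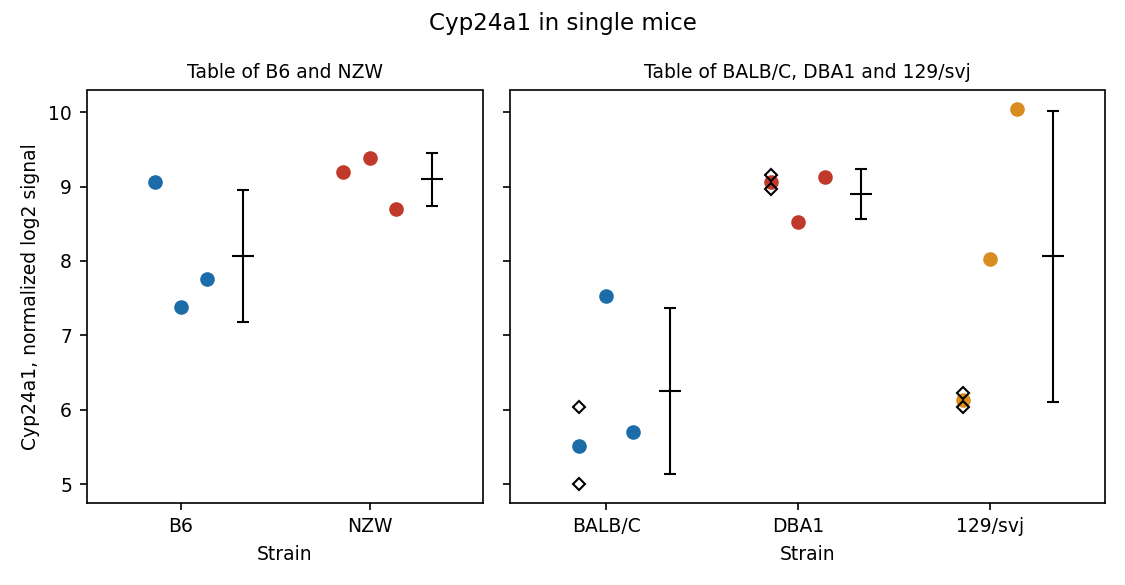
Normalized log2 signal of Cyp24a1 (y axis) in each mouse by strain (x axis), the 2 tables in separate panels because they were normalized separately. Filled points are mice 1 to 3 from left to right, open diamonds both arrays of mouse 1, and black bars the mean ± SD; 129/svj spans 6.13 to 10.04, and all BALB/C mice lie below all DBA1 mice.

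Among B6 and NZW mice, the Cyp24a1 probe had raw signals of 721.7, 799.2, and 419.0 in NZW mice 1, 2, and 3. In B6 they were 614.4, 243.1, and 255.7. All NZW mice were at or above 419.0, and B6 mouse 1 lay among them while the other B6 mice were lower. The normalized log2 value was 9.10 ± 0.36 (SD, n = 3) in NZW and 8.06 ± 0.88 (SD, n = 3) in B6, a difference of -1.03 for B6 minus NZW, with overlap.

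The spread of Cyp24a1 between mice of a strain was large beside that of other probes. Its pooled within-strain SD on the log2 scale was 1.32 in the table of BALB/C, DBA1, and 129/svj, where the median of all 15817 tested probes was 0.238 and 18 probes (0.114%) had a larger one. Without DBA1 mouse 3 and 129/svj mouse 3 it was 1.05, beside a median of 0.189, and 17 probes (0.107%) had a larger one. Both values include BALB/C (SD 1.12), which was near the background and where repeat arrays of mouse 1 differed by 1.03. They therefore hold differences between arrays as well as between mice. In B6 and NZW the pooled SD of Cyp24a1 was 0.67, against a median of 0.161, and 70 of 16756 probes (0.418%) had a larger one. Cyp27b1 followed in B6 and NZW with 0.54, exceeded by 1.02% of the tested probes, and then Calb1 with 0.38. Vdr, S100g, Trpv5, Trpv6, and Kl lay between 0.08 and 0.17 in that table.

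Genes whose mice deviated from their strain means like those of Cyp24a1 were sought among the 4756 probes tested in both tables. The correlations of these deviations over 15 mice are descriptive, since the mice of a table share a normalization and the mouse with the largest deviation weighs most. The highest were those of Prosc (r = 0.87, and 0.84 without 129/svj mouse 3), Psmd1, a subunit of the proteasome (0.86, and 0.79), and LOC100045738 (0.81, and 0.73). The lowest were those of Piasg-pending (-0.86, and -0.79), Bat2d (-0.84, and -0.81), and mtDNA_COXI (-0.83, and -0.75). Within B6 and NZW alone, Prosc stood at 0.51, Psmd1 at 0.52, and LOC100045738 at -0.05. Piasg-pending stood there at -0.67, Bat2d at -0.75, and mtDNA_COXI at -0.25. Of the vitamin D and calcium genes in the 6 mice of B6 and NZW, the values were 0.55 and 0.00 for the Vdr probes, 0.53 for S100g, and 0.24 for Cyp27b1. Those of Trpv5 (-0.45), Calb1 (-0.35), Kl (-0.29), and Trpv6 (-0.28) were below 0. The Pthr1 probes disagreed in size, 1 at -0.78, the farthest from 0 of these genes, and the other at -0.39. In the other table, over 9 mice, the correlations were -0.20 for Calb1, which became 0.29 without 129/svj mouse 3, and -0.11 for Trpv5.

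Cell type markers were read beside Cyp24a1. In 129/svj, parvalbumin, encoded by Pvalb, a calcium-binding protein of the distal convoluted tubule, had log2 values of 11.56 and 12.00 in mice 1 and 2 and 9.06 in mouse 3, the mouse with the highest Cyp24a1. The macrophage marker Cd68 was at 6.79 and 6.11 in mice 1 and 2 and at 9.36 in mouse 3. Over the whole lists, the summed normalized signal of the distal convoluted tubule markers (2 of 3 genes read) ranged from 3327 to 11185 in 129/svj, from 6415 to 10121 in DBA1, and from 10270 to 10835 in BALB/C. That of the macrophage markers (4 of 7 genes read, each detected in at least 1 mouse) ranged from 491 to 1803 in 129/svj, from 1037 to 2044 in DBA1, and from 411 to 639 in BALB/C. These markers did not follow Cyp24a1 in every mouse. In 129/svj mouse 2 had more Cyp24a1 than mouse 1, but less Cd68 and more Pvalb, and in BALB/C the mouse with the most Cyp24a1, mouse 2, had the least Cd68, at 5.85 against 7.30 and 7.61. The part of these cell types in the level of Cyp24a1 was not tested. Between B6 and NZW the summed distal convoluted tubule markers overlapped, at 11256 to 14252 and 11680 to 13510, and the macrophage markers were at 2470 to 4281 in B6 and 1901 to 1993 in NZW.

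Vdr was read by 2 probes in B6 and NZW, and these differed in direction. Probe ILMN_2498695 had normalized log2 values of 8.13, 7.99, and 8.03 in B6 mice 1, 2, and 3. In NZW they were 6.32, 6.67, and 6.37, from raw signals of 133.3 to 166.9, near the background. The B6 mice were all higher, by 1.59 (SE 0.12, 3.02-fold, adjusted p = 4.1e-05 in limma with Benjamini-Hochberg adjustment over all tested probes). Probe ILMN_2445166 read 12.40, 12.34, and 12.35 in the B6 mice and 12.54, 12.74, and 12.82 in the NZW mice. Here the B6 mice were all lower, with a difference of -0.34 (SE 0.11, adjusted p = 0.067), which did not pass the test. With 75th percentile scaling in place of quantile normalization, this probe passed at -0.55 (adjusted p = 0.017), so a direction for the receptor's transcript as a whole cannot be given. Why the probes differ was not tested.

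S100g, which encodes the small calbindin that ferries calcium through the cell, was higher in B6 than in NZW. Its log2 values were 7.83, 7.65, and 7.72 in B6 and 7.05, 7.47, and 7.18 in NZW. The groups did not overlap, and the difference of 0.50 (SE 0.13, 1.42-fold) passed in limma with an adjusted p of 0.032. This call was lost when any 1 mouse other than NZW mouse 2 was left out (adjusted p from 0.066 to 0.11, difference from 0.41 to 0.55). Outside B6 and NZW, S100g passed the detection limit in BALB/C mouse 1 alone, with raw signals from 104.3 to 164.1 over all mice, and it was not tested.

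Vdr probe ILMN_2498695 and that of S100g were thus the 2 called of the 8 tested probes other than Cyp24a1, both higher in B6. In that comparison 18.9% of all 16756 tested probes were called, 9.25% higher and 9.61% lower in B6. The median difference of these 8 probes was -0.01, and that of all tested probes was -0.042. A count of 2 in 8 is close to the share of the array as a whole. With 75th percentile scaling, the count was 2 again, but its probes were both those of Vdr.

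The 250 bases before the start sites of Vdr and S100g are shown because a probe of each was called between B6 and NZW, and because the vitamin D receptor binds hexamers of the kind searched. They are RefSeq sequences of assembly GRCm38.p6, which derives from B6, so they do not show NZW. Capitals mark any of the 6-base words that the receptor favours, searched on both strands: the word AGGTCA, the variant AGTTCA, the variant GGGTCA, and the variant GGTTCA. The promoter of Vdr lies at chr15:97908297-97908546 and that of S100g at chrX:162964600-162964849, both on the minus strand of the assembly.
Vdr: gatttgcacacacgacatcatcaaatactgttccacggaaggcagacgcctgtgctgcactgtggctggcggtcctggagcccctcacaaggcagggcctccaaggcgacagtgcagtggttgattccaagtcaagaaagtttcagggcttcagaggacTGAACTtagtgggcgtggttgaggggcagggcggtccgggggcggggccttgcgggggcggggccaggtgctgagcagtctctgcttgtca
S100g: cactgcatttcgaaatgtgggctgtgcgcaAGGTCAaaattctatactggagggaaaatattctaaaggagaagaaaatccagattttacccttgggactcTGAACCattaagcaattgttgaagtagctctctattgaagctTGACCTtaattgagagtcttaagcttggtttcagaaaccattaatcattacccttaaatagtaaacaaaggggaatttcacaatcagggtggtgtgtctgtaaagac
Vdr held 1 such word (AGTTCA, on the opposite strand) and S100g 3 (AGGTCA on each strand, and GGTTCA on the opposite strand), while 38.6% of the 32851 promoters of the same length held at least 1. No direct repeat of these words spaced by 3 bases, the arrangement known for the receptor, was in the window of either gene, and 0.0396% of all promoters held one. Promoters could be read for 7 of the 10 genes, and of their 9 start sites 4 held a word. A match is a description of letters and not a binding site.

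**Figure D2:**
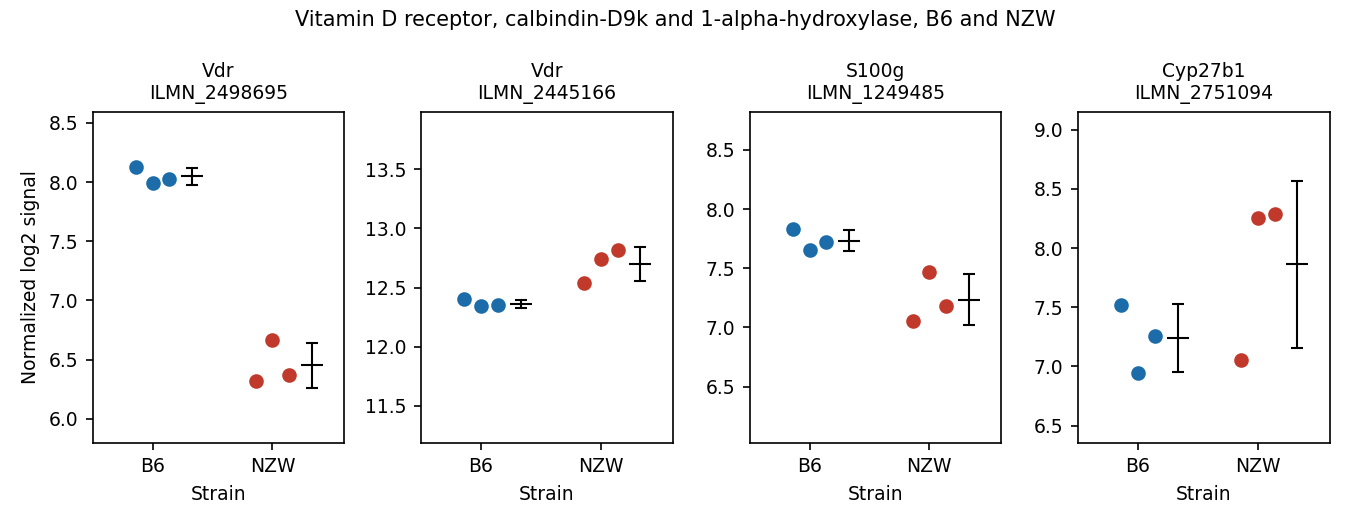
Normalized log2 signal (y axis, equal spans in all panels) of both Vdr probes, S100g, and Cyp27b1 in single mice of B6 and NZW (x axis), with black bars for the mean ± SD. The Vdr probes separate the strains in opposite directions, by 1.59 and -0.34 for B6 minus NZW, and the mice of Cyp27b1 overlap.

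Calb1, which encodes the larger calbindin of the distal tubule, was higher in BALB/C than in DBA1. Its log2 values were 10.78, 10.66, and 10.19 in BALB/C mice 1, 2, and 3. In DBA1 they were 9.46, 8.94, and 9.46. In 129/svj they were 9.86, 10.62, and 9.32. All BALB/C mice lay above all DBA1 mice, and the 129/svj mice were spread between and across them. BALB/C exceeded DBA1 by 1.25 (SE 0.31, 2.39-fold, adjusted p = 0.045 in limma), and this was 1 of the 2 tested probes other than Cyp24a1, where 5.75% of all tested probes were called. Without DBA1 mouse 3 the difference was 1.34 and no longer passed (adjusted p = 0.065), and without 129/svj mouse 3 it was 1.25 (adjusted p = 0.018). The call was lost in 7 of the 9 fits that left out 1 mouse, at differences from 1.08 to 1.43 and adjusted p values from 0.013 to 0.16 over the 9 fits.

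The other differences of Calb1 did not pass in limma. BALB/C minus 129/svj was 0.61 (SE 0.31, adjusted p = 0.41), and 0.30 (adjusted p = 0.74) without 129/svj mouse 3. DBA1 minus 129/svj was -0.64 (SE 0.31, adjusted p = 0.42), and -0.95 (adjusted p = 0.11) without that mouse. B6 minus NZW was 0.28 (SE 0.24, adjusted p = 0.46). None of the 2 tested probes other than Cyp24a1 was called by limma for BALB/C minus 129/svj, where 4.83% of all tested probes were called, or for DBA1 minus 129/svj, where 4.5% were called. At an unadjusted p of 0.05 the count was 0 in both comparisons, with limma and with the test that the study's methods name.

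Trpv5, the channel through which calcium enters distal tubule cells, showed no difference past the test. Its log2 values were 8.30, 7.90, and 8.07 in BALB/C, 7.38, 7.90, and 7.24 in DBA1, and 7.40, 7.97, and 7.59 in 129/svj. BALB/C had the highest mean, and its lowest mouse was level with the highest of DBA1 at 7.90. BALB/C minus DBA1 was 0.58 (SE 0.21, adjusted p = 0.17 in limma), and 0.45 (adjusted p = 0.34) without DBA1 mouse 3. In B6 and NZW the difference was 0.10 (SE 0.11, adjusted p = 0.59). Trpv6, the related channel, was read in B6 and NZW close to the background, at raw signals of 104.0 to 116.5, and B6 minus NZW was -0.11 (SE 0.10, adjusted p = 0.52).

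Parvalbumin had the largest called difference among 11 tested probes of a wider list for calcium and magnesium transport. Of these, 1 passed for BALB/C minus DBA1, where 5.75% of all tested probes were called. Pvalb was at 11.71, 11.97, and 11.86 in BALB/C and at 9.84, 8.48, and 7.47 in DBA1. The difference was 3.25 (SE 0.74, 9.52-fold, adjusted p = 0.031 in limma), and without DBA1 mouse 3 it was 2.69 (adjusted p = 0.081). The call was lost in 5 of the 9 fits that left out 1 mouse, those without any 1 of the BALB/C mice and without DBA1 mouse 2 or 3, at adjusted p values up to 0.11. Slc12a3, the salt cotransporter that defines the distal convoluted tubule, was at 12.76, 12.74, and 12.79 in BALB/C and at 13.17, 12.89, and 12.61 in DBA1, with overlap and a difference of -0.13 (SE 0.29, adjusted p = 0.87). Its other tested probe gave -0.03 (SE 0.31, adjusted p = 0.97).

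**Figure D3:**
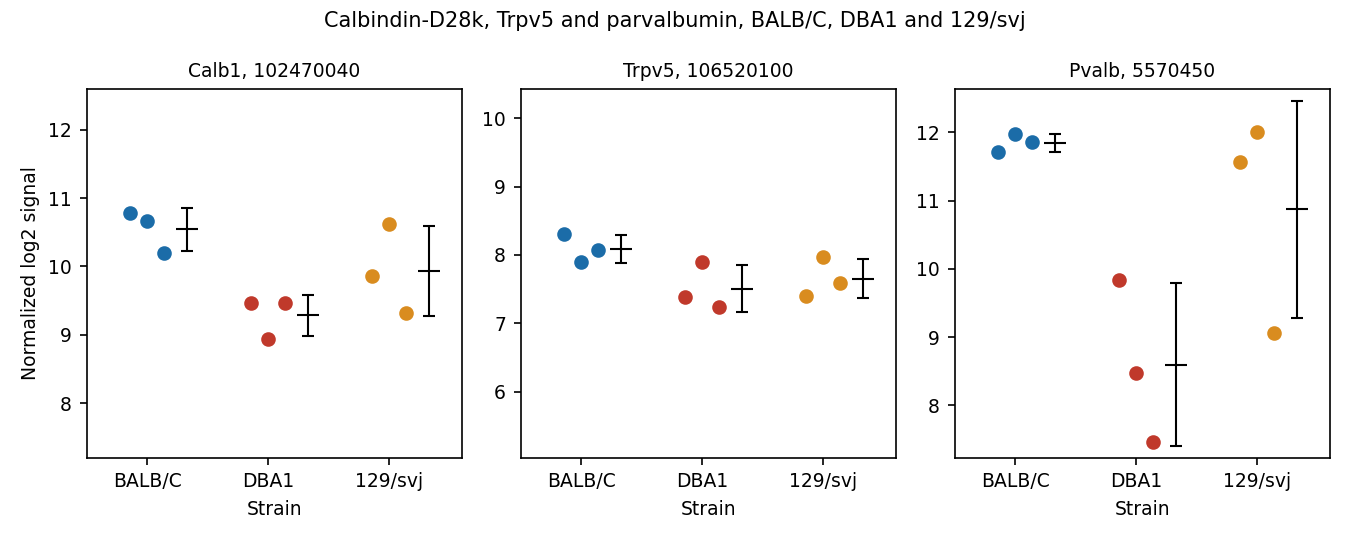
Normalized log2 signal (y axis, equal spans in all panels) of Calb1, Trpv5, and Pvalb in single mice of BALB/C, DBA1, and 129/svj (x axis), with black bars for the mean ± SD. The BALB/C mice lie above the DBA1 mice in Calb1 and Pvalb, and 129/svj mouse 3, the rightmost point, is the lowest of its strain in both.

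In B6 and NZW the order of parvalbumin was the other way for the labelled classes, with the sensitive strain higher. Pvalb was at 12.94, 13.13, and 13.00 in NZW and at 10.39, 10.31, and 11.24 in B6. The difference was -2.38 for B6 minus NZW (SE 0.23, 5.19-fold, adjusted p = 0.00015 in limma). It was the only one called among 22 tested probes of the calcium and magnesium list, while 18.9% of all tested probes were called. Slc12a3 was higher in B6, by 1.46 (SE 0.13, adjusted p = 0.00012) on 1 probe and by 0.77 (SE 0.11, adjusted p = 0.0012) on another, while its remaining tested probes gave 0.13 (SE 0.13, adjusted p = 0.55) and -0.14 (SE 0.13, adjusted p = 0.52). Pvalb and the called probes of Slc12a3 therefore differed in opposite directions between B6 and NZW.

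Cyp27b1, which makes the active hormone, was detected in B6 and NZW on 1 of 2 probes. Its log2 values were 7.05, 8.25, and 8.29 in NZW and 7.52, 6.94, and 7.26 in B6. NZW mice 2 and 3 lay above all B6 mice and NZW mouse 1 among them, and B6 minus NZW was -0.62 (SE 0.32, adjusted p = 0.22 in limma). Without NZW mouse 1 the difference was -1.03 and passed (adjusted p = 0.01). In the other table the matched row stood at raw signals of 105.6 to 146.2 and was detected in no mouse.

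Kl and the receptors of the phosphate and calcium hormones gave no difference past the test. Kl was at 10.96, 11.13, and 11.18 in NZW and at 10.82, 10.81, and 11.04 in B6, a difference of -0.20 (SE 0.12, adjusted p = 0.28 in limma). The Pthr1 probes gave 0.13 (SE 0.11, adjusted p = 0.48) and 0.03 (SE 0.17, adjusted p = 0.91) for B6 minus NZW. Fgfr1 was detected in no mouse of any strain on its 3 probes, which had raw signals of 61.0 to 87.5 in B6 and NZW and 93.5 to 129.2 in the other table. The remaining probes, one each of Calb1, Cyp27b1, and Trpv5 in B6 and NZW, did not reach detection in 3 mice.

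**Figure D4:**
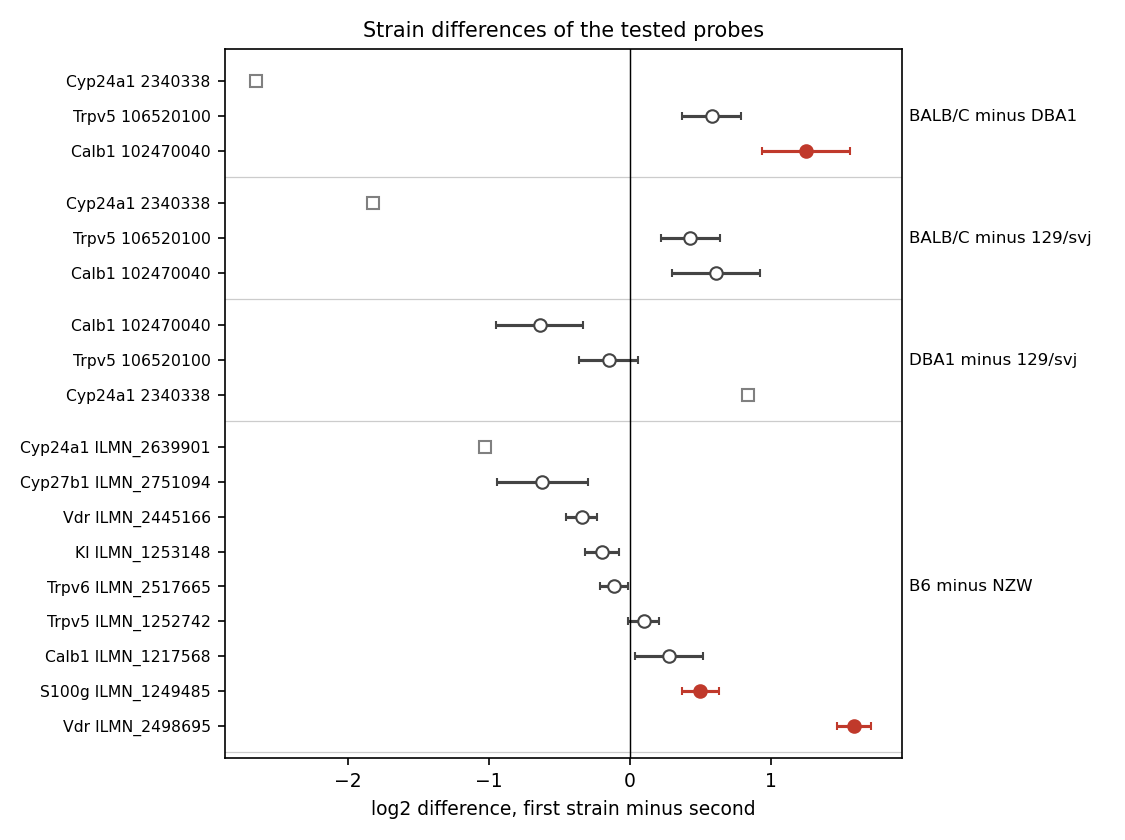
Log2 difference between strains (x axis, first strain minus second) of each tested probe (y axis) in the 4 comparisons. Circles with bars are estimates ± SE from limma, filled where the adjusted p was below 0.05, and open squares are the differences of Cyp24a1, given without a test. The filled points are Calb1 at 1.25, S100g at 0.50, and Vdr at 1.59.

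Wider lists were read in the same fits. Of 14 tested probes for vitamin D uptake and activation, 3 were lower and none higher in B6 than in NZW, a share close to the 18.9% of all probes called in that comparison. Lrp2, the endocytic receptor megalin, was at -1.16 (SE 0.13, adjusted p = 0.00043 in limma), and Cubn, cubilin, which works with megalin, at -0.60 (SE 0.11, adjusted p = 0.007). The third probe, of Rxrg, a partner of the vitamin D receptor, was detected in all NZW mice, at 5.71 or above, and in no B6 mouse, so it entered the test through NZW alone and had to differ, and no size is given for it. The other Lrp2 probe gave -0.16 (SE 0.12, adjusted p = 0.43), so the probes of this gene disagree in size. The list median was -0.18, beside -0.042 for all tested probes. None of its 9 tested probes passed in limma in the comparisons of the other table, where 2 had an unadjusted p below 0.05 for BALB/C minus DBA1, 1 for BALB/C minus 129/svj, and 0 for DBA1 minus 129/svj.

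Of 10 tested probes for FGF23 and parathyroid hormone signalling, 1 was lower in B6 than in NZW, where 18.9% of all tested probes were called. It was a probe of Gnas, the G protein subunit behind that hormone's receptor, at -0.76 (SE 0.12, adjusted p = 0.0031 in limma). The other tested Gnas probes gave -0.19 (SE 0.12, adjusted p = 0.32) and 0.01 (SE 0.14, adjusted p = 0.97), so the probes of this gene disagree. Outside B6 and NZW, 1 of 6 passed, that of Fgfr4 for BALB/C minus 129/svj, where 4.83% of all tested probes were called. It was detected in all 129/svj mice, at 5.98, 5.92, and 5.75, and in no mouse of BALB/C or DBA1, so it entered the test through 129/svj alone and no size is given for it. This call is therefore not read as a result, and it was lost in 7 of the 9 fits that left out 1 mouse.
Of 7 tested probes for phosphate transport, 2 passed for B6 minus NZW, where 18.9% of all tested probes were called. Both were of Pdzk1, a scaffold protein of the proximal tubule brush border. They were at -0.64 (SE 0.11, adjusted p = 0.0048 in limma) and -0.44 (SE 0.10, adjusted p = 0.014). None of the 4 tested in the other table passed in limma, where 1 had an unadjusted p below 0.05 in each comparison.

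Some markers of other cell types were also called between B6 and NZW, where 18.9% of all tested probes were called. Of 5 tested probes of tubule injury, 3 were higher in B6. Among them were Timp1, at 1.86 (SE 0.44, adjusted p = 0.02 in limma), and Lcn2, at 1.80 (SE 0.46, adjusted p = 0.028). Havcr1 was lower, at -2.77 (SE 0.60, adjusted p = 0.013). Over the 6 fits that left out 1 mouse, Havcr1 lost its call in 2, Timp1 in 3, Lcn2 in 4, and the remaining higher probe in 5. The adjusted p values of limma reached 0.057, 0.071, 0.09, and 0.11 in the same order. The summed signal of that list ranged from 7887 to 15682 in B6 and from 6525 to 8360 in NZW, and Krt20 was detected in no mouse. Of 13 tested probes of the proximal tubule, 3 were lower and 1 higher in B6, and the summed signal was 71528 to 82721 in B6 and 90877 to 95911 in NZW. The part of these cell types in the differences of Vdr, S100g, Lrp2, Cubn, and Pdzk1 was not tested. In BALB/C minus DBA1, where 5.75% of all tested probes were called, the macrophage marker Cd14 was the 1 of 4 that passed. It was at -2.79 (SE 0.54, adjusted p = 0.014 in limma), and at -2.47 (adjusted p = 0.043) without DBA1 mouse 3. The part of Cd14 in the difference of Calb1 was not tested.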

How the data were processed

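RNA of the kidney cortex of 15 mice was measured on 18 Illumina BeadChip arrays. The authors deposited, in 2 tables, a signal intensity per probe and array from the scanner software without normalization, with its bead error, bead count, and a detection p-value against negative controls. No other columns were used, and tools beyond the scanner software are not given in the sources used here. Probes of the tables were matched by search key. Each table was normalized by itself with limma 3.58.1 in R 4.3.3, by normexp from the detection p-values (offset 16), quantile normalization, and log2. Repeat arrays of a mouse were averaged. Probes with a detection p of at most 0.05 in 3 or more mice were fitted with lmFit and eBayes, 1 coefficient per strain, and Benjamini-Hochberg adjustment over all tested probes of the table. The fit was tested on simulated data. Differences on the offset scale understate those of dim probes, and the number of arrays limits the precision. Python 3.11.15 with pandas 2.3.3 served to join the files.

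The genes, lists, and tests were chosen with earlier results of these data known. All probes of the listed genes are described; of the wider lists, at most 3 called probes per list and comparison are named. Alternatives covered normalization, background, offset, filter, replicate number, repeat arrays, variance model, the methods' t-test, and each mouse left out; those for probes of the wider lists were added after the data had been seen. Replicate numbers did not pair the mice (correlations of deviations from -0.26 to 0.388 and from -0.0732 to 0.0112 for same-numbered mice), so no block was used.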

Additional observations from a re-analysis of the deposited data

How the results depend on the processing

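Vdr probe ILMN_2498695 stayed past the threshold in all 14 alternatives that could be run for it, with differences from 1.12 to 1.70 and adjusted p values from 2.4e-06 to 0.0072. The calls of Calb1 (BALB/C minus DBA1) and S100g (B6 minus NZW) were each lost in 10 alternatives, and Vdr probe ILMN_2445166 passed in 5 and Cyp27b1 in 1. No difference of a called probe turned its direction. The number of probes called for BALB/C minus DBA1 was 587 with detection required in every mouse, 398 with the t-test of the methods after adjustment, and 2729 at its unadjusted P. For BALB/C minus 129/svj these numbers were 466, 319, and 2236, and for DBA1 minus 129/svj 368, 217, and 1787. For B6 minus NZW they were 1851 with the t-test after adjustment, 4770 at its unadjusted P, and 677 with joint normalization of both tables, which tests paired probes only. With 75th percentile scaling 3621 were called, 1350 higher and 2271 lower in B6 (37.3% higher, against 49.0% of the 3161), with a median of all probes of -0.13. Leaving out each mouse gave 495 to 1153 for BALB/C minus DBA1, 484 to 931 for BALB/C minus 129/svj, 476 to 773 for DBA1 minus 129/svj, and 2085 to 2716 for B6 minus NZW. Among the vitamin D and calcium probes, the count for BALB/C minus DBA1 was 0 with no filter, the replicate block, the t-test after adjustment, and joint normalization, where S100g was the only one besides Cyp24a1 that could be read, and 0 to 1 without each mouse. For B6 minus NZW it was 1 with no filter, the replicate block, and the t-test after adjustment, 0 with joint normalization, and 1 to 3 without each mouse. With the replicate number as a block, the probes called were 915, 738, 679, and 2627 in the same order of comparisons. That block ended the calls of Calb1 (adjusted p = 0.054) and S100g (adjusted p = 0.066). The cause of these changes was not tested. Signals near the background limit Trpv6, S100g, Vdr probe ILMN_2498695 in NZW, and Cyp24a1 in BALB/C.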

Other observations

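Other markers read in the same fits gave few calls. The complement gene C1qb, a macrophage marker, was higher in B6 than in NZW by 1.02 (SE 0.13, adjusted p = 0.00083 in limma). It was the 1 called of 8 tested, while 18.9% of all tested probes were called in that comparison. For the same strains, none of 5 tested probes of the thick ascending limb, 4 of the collecting duct, 3 of lymphocytes, and 2 of sex-linked genes passed in limma, where 1, 0, 0, and 0 had an unadjusted p below 0.05.

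In the other table, Slc5a2, a glucose transporter of the proximal tubule, was lowest in 129/svj, with BALB/C higher by 1.53 (SE 0.24, adjusted p = 0.0035 in limma) and DBA1 higher by 1.23 (SE 0.24, adjusted p = 0.014), which was 1.08 (adjusted p = 0.059) without 129/svj mouse 2. Slc22a6, an organic anion transporter of the same segment, was lower in BALB/C than in 129/svj, by a difference of -1.39 (SE 0.32, adjusted p = 0.036), a call lost in 6 of the 9 fits that left out 1 mouse, at adjusted p values up to 0.14. None of the 4 tested probes of the collecting duct passed in limma, and none of the 2 of tubule injury. Of the collecting duct probes, 3 had an unadjusted p below 0.05 for BALB/C minus DBA1 and 2 for BALB/C minus 129/svj. Of the tubule injury probes, 2 had one for BALB/C minus DBA1, 1 for BALB/C minus 129/svj, and 0 for DBA1 minus 129/svj. For the 4 tested macrophage probes, Cd14 included, these counts were 3, 0, and 1 in the same order. The calcium and magnesium list had no call for BALB/C minus 129/svj or DBA1 minus 129/svj in limma, where 3 and 1 of 11 tested probes had an unadjusted p below 0.05.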
